A study of Mus musculus with 6 samples.

Results

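Ligand-gated neurotransmitter receptors are ion channels that open when a transmitter binds, and each is built from several subunits made by separate genes. The genes described here were chosen by name, with earlier results of these data known. They are those of the GABA-A, GABA-rho, glycine, ionotropic glutamate, nicotinic acetylcholine and 5-HT3 receptor families that 1 gene symbol in the platform's probe table could name. This gave 54 genes of the 18193 named on the array. Of them 53 encode receptor subunits. The other, Grid2ip, encodes a scaffold protein that binds a delta glutamate receptor and entered through the pattern of its name. Each gene was read from 1 probe set, the one with the highest mean over all 6 arrays.

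The values come from mouse embryos at E10.5. In the control group (3 arrays) the Hoxb1 locus made normal Hox-B1 protein together with the reporter tauGFP (Hoxb1-IRES-tauGFP). In the swap group (3 arrays) the same locus, also tagged with IRES-tauGFP, made the paralogous protein Hox-A1 in place of Hox-B1 (Hoxb1>A1-IRES-tauGFP). GFP-positive cells were sorted from hindbrains dissected from whole litters, so both groups carried the tagged locus and each array held a pool of embryos. Rhombomere 4, named as the tissue in the labels, is the hindbrain segment in which Hoxb1 stays active, and the sort takes every cell in which that locus drives the reporter, neuron or not. All 7 listed neuron markers and all 6 listed neural progenitor markers lay at or above the median level, and of the 4 measured branchiomotor markers Isl1, Tbx20 and Phox2a did so and Chat did not. Markers of other cells reached that level too. Of those measured, 5 of 6 for branchial mesenchyme, 3 of 3 for neural crest and glia and 3 of 4 for erythroid cells did. So did 3 of 8 for macrophages, 1 of 3 for cranial sensory ganglia, 1 of 10 for skeletal muscle and 0 of 6 for endothelium. In a bulk sample, fewer cells of a type and less RNA per cell cannot be told apart.

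GABA-A, GABA-rho and glycine receptors pass chloride and are the main fast inhibitory channels of the mature nervous system, although in immature neurons, where internal chloride is high, they can excite. AMPA, kainate and NMDA receptors pass cations in response to glutamate. Nicotinic receptors pass cations in response to acetylcholine, with one set of subunits in neurons and another in skeletal muscle. Many of these genes are switched on before synapses form, and the subunit makeup of a receptor changes as neurons mature.

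No subunit gene passed the test between the genotypes. limma called 0 of 54 genes at an adjusted p under 0.05, against 0 of 45037 probe sets (0%), and 2060 of those probe sets had an unadjusted p under 0.05. At that unadjusted threshold 4 of the 54 genes were found, all lower in the swap arrays: Chrna2, Grin3a, Gabre and Gabrg1. That is 7.41% of the subunit genes, against 3.63% of all genes, of which 1.94% were lower and 1.69% higher in the swap arrays. The 4 genes all lay below the median level of all probe sets, a log2 intensity of 6.83, where unadjusted p under 0.05 was more frequent for genes in general (7.4% of 7025 genes, with 4.2% lower in the swap arrays). Of the 31 subunit genes below that level they made up 12.9%, and the 23 genes at or above it held 0.

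Over the 54 genes the median log2 difference, swap minus control, was -0.12, and 33 genes had a difference below 0 and 21 above it. Over all 18193 genes the median was 0.01 and 49.1% lay below 0. The 54 differences ran from -2.84 to 2.02. Precision was limited: the 95% interval stayed inside a 2-fold change for 8 of the 23 genes at or above the median level and for 3 of the 31 below it, and the median standard error was 0.32 and 0.72 log2 units respectively. The arrays of the 2 groups did not overlap for 6 genes (11.1%), against 8.85% of all genes (4.55% lower and 4.3% higher). Those lower in the swap arrays were Chrna2, Grin3a, Gabre, Gabrg1 and Grin2d, and the 1 higher was Chrnb4.

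**Figure D1:**
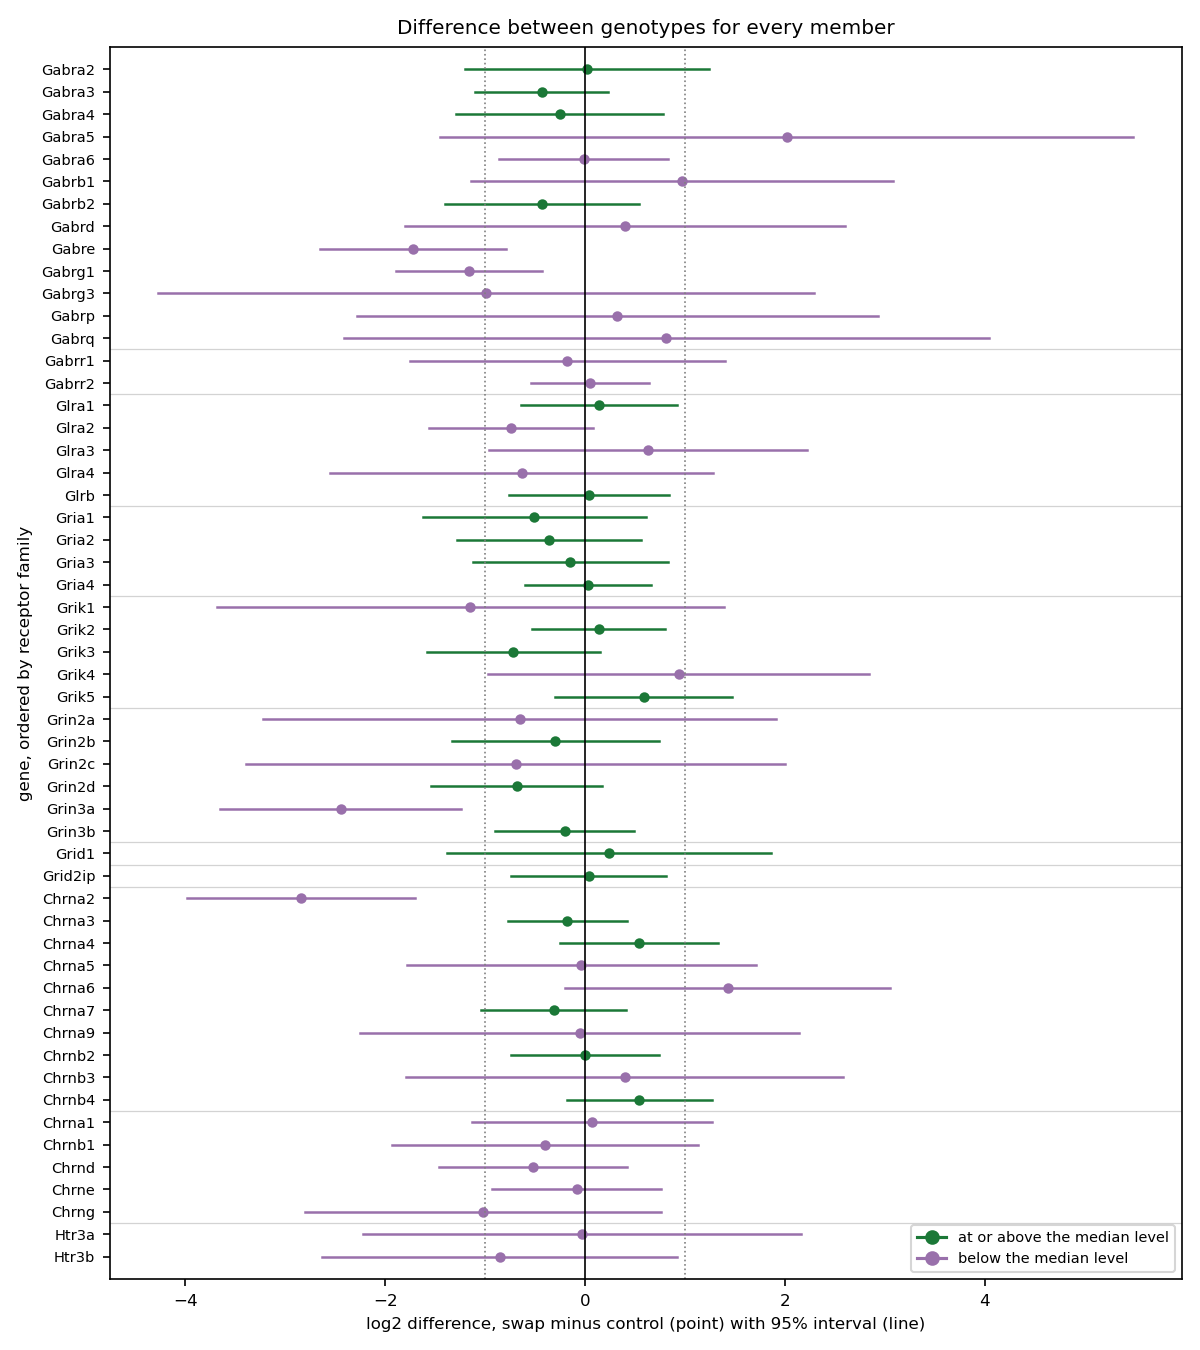
Log2 difference, swap minus control, for each of the 54 genes (points) with its 95% interval from limma (lines), grouped by receptor family, with dotted lines at a 2-fold difference either way. In the reported fit the intervals of Chrna2, Grin3a, Gabre and Gabrg1 lie wholly below 0, all 4 below the median level, and the other intervals cross 0.

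Of the GABA-A receptor subunits 13 were measured, 4 of them at or above the median level. Gabrb2 encodes a beta subunit, which with an alpha subunit forms the GABA binding site. Its log2 intensities in replicate order were 9.09, 9.62 and 9.28 for the control and 8.14, 9.24 and 9.31 for the swap group, the order used for every gene from here on. Swap array 1 was the lowest of the 6, and the other swap arrays lay within the control range. The difference was -0.43 (95% interval -1.40 to 0.54), and it was lower in the swap arrays at all 5 probe sets of the gene, from -0.43 to -1.20, none past the test.

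Among the alpha subunits, which set much of a receptor's pharmacology, Gabra3 stood at 7.72, 7.66 and 7.60 in the control and at 6.93, 7.10 and 7.65 in the swap arrays. Swap array 3 fell within the control range and the other 2 below it (difference -0.44, 95% interval -1.10 to 0.23). Gabra2 was read at 6.17, 7.80 and 6.99 in the control and at 7.52, 6.88 and 6.60 in the swap arrays, with full overlap and a difference of 0.02. Gabra2 is an unsteady reading, since without both replicate 1 arrays the difference was -0.65 and another of its 5 probe sets, at a low level, gave 2.03. Gabra4 was read at 7.02, 7.06 and 7.81 in the control and at 6.86, 6.52 and 7.74 in the swap arrays, a difference of -0.25 with overlapping groups.

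Gabre and Gabrg1 stood lower in every swap array. Gabre encodes the epsilon subunit, known for making GABA-A receptors less sensitive to benzodiazepines and some anaesthetics. It was at 5.58, 6.61 and 5.91 in the control and at 3.83, 4.50 and 4.58 in the swap arrays, so the highest swap array lay below the lowest control array. The difference was -1.72 (SE 0.38, a 3.31-fold lower intensity), with an unadjusted p of 0.00417 and an adjusted p of 0.748 in limma. Gabrg1, a gamma subunit gene, was at 7.37, 6.76 and 7.05 in the control and at 5.97, 6.21 and 5.52 in the swap arrays. Its groups did not overlap either, and the difference was -1.16 (SE 0.30, 2.23-fold lower, adjusted p 0.869 in limma). A lower probe set of Gabrg1 gave -1.31, with control values of 6.65, 4.77 and 5.81 and swap values of 1.78, 5.42 and 6.12, so there 1 swap array made the difference.

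The other 7 GABA-A genes, Gabra5, Gabra6, Gabrb1, Gabrd, Gabrg3, Gabrp and Gabrq, all lay below the median level, with differences from -0.99 to 2.02 and overlapping groups. Gabra5, an alpha subunit gene, had the difference of 2.02, but its control arrays alone spread from 0.79 to 5.25. The GABA-rho genes, known best from the retina, were both low, with Gabrr1 at 3.61, 5.43 and 3.69 in the control and 3.75, 3.54 and 4.90 in the swap arrays. That is a difference of -0.18 (SE 0.64) with overlapping groups, and Gabrr2 differed by 0.05.

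Of the glycine receptor genes 5 were measured, and the beta subunit and the alpha 1 subunit were at or above the median level. Glrb encodes the beta subunit, which ties the receptor to the scaffold protein gephyrin. It stood at 9.61, 9.47 and 9.63 in the control and at 10.08, 9.04 and 9.71 in the swap group. The swap arrays spread to both sides of the control arrays, and the difference was 0.04 (95% interval -0.76 to 0.84). Glra1, the alpha subunit gene of adult spinal cord and brainstem, was at 7.94, 8.12 and 7.82 in the control and 8.16, 7.58 and 8.56 in the swap arrays, again with overlap and a difference of 0.14 (95% interval -0.64 to 0.92). Glra2, the alpha subunit gene of embryonic neurons, had its mean below the median level, with 6.14, 6.66 and 7.03 in the control and 5.53, 5.87 and 6.20 in the swap arrays. Only swap array 3 reached into the control range, and the difference was -0.74 (SE 0.33, unadjusted p 0.0678 in limma). Glra3 and Glra4 were low, with differences of 0.63 and -0.63.

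**Figure D2:**
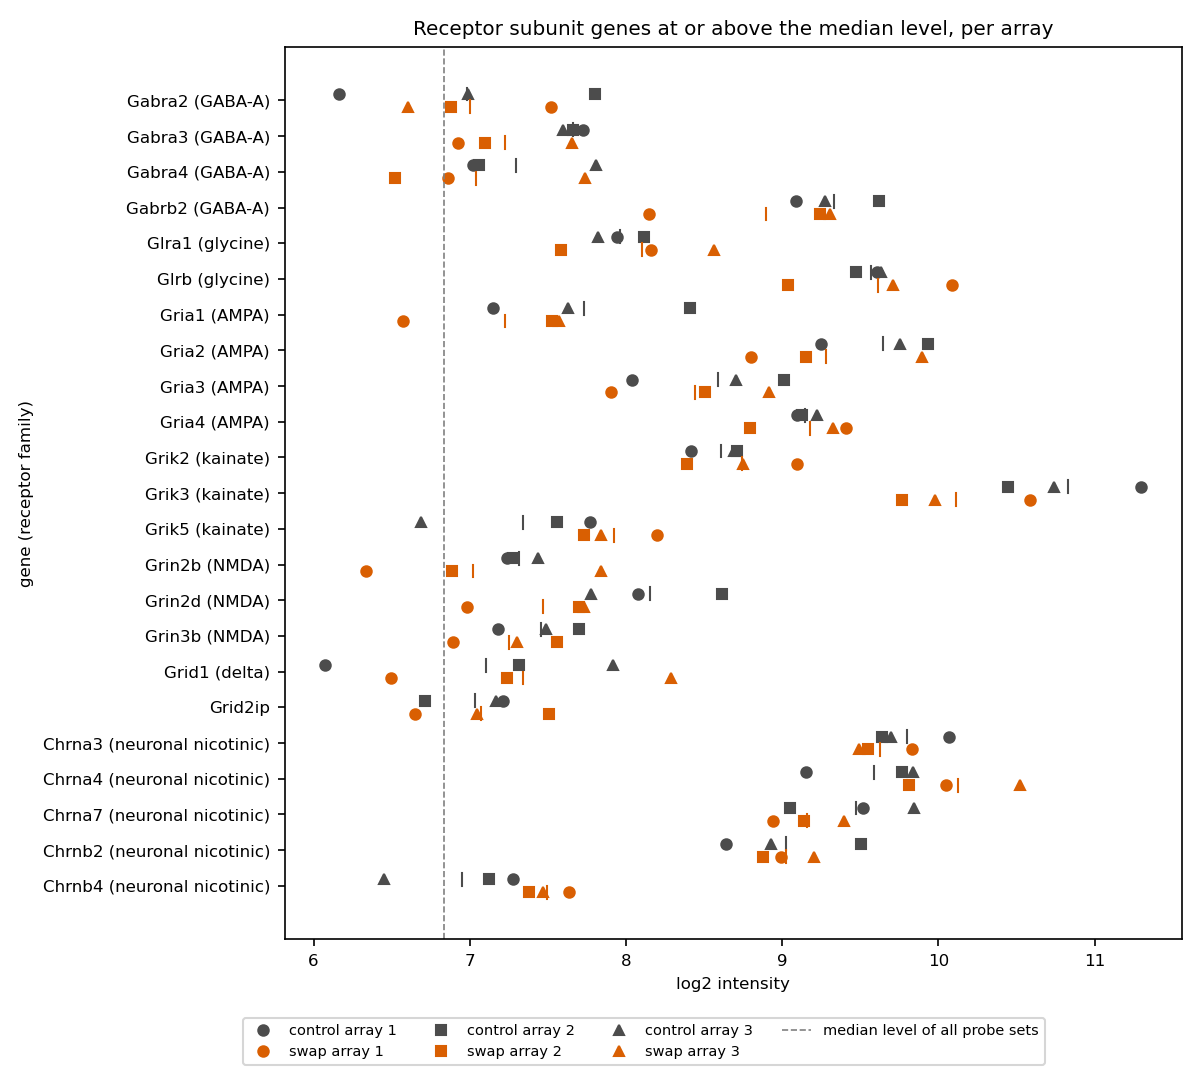
Log2 intensity per array of the 23 genes at or above the median level (dashed line), 3 control arrays in grey and 3 swap arrays in orange, with a short bar at each group's mean. The groups overlap for 21 of the 23 genes; all swap arrays lie below all control arrays for Grin2d and above them for Chrnb4.

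The 4 AMPA receptor genes, which encode the channels of fast glutamate transmission, were all at or above the median level, and none passed the test. Gria2 encodes the subunit that keeps calcium out of the channel after its transcript is edited. It stood at 9.25, 9.93 and 9.76 in the control and at 8.80, 9.15 and 9.89 in the swap group. The groups overlapped, and the difference was -0.36 (95% interval -1.29 to 0.56). Gria4, another AMPA subunit gene, was at 9.09, 9.12 and 9.22 in the control and at 9.41, 8.79 and 9.32 in the swap group. The swap arrays lay on both sides of the tight control group, and the difference was 0.03 (95% interval -0.60 to 0.66).

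Gria1 was read at 7.15, 8.41 and 7.63 in the control and at 6.57, 7.53 and 7.57 in the swap arrays, a difference of -0.51 (95% interval -1.63 to 0.61). Gria3 was read at 8.04, 9.01 and 8.70 in the control and at 7.90, 8.50 and 8.91 in the swap arrays, a difference of -0.15. Gria1, Gria2 and Gria3 each had their lowest control value in control array 1 and their lowest swap value in swap array 1. Control array 1 was the lowest control array for 4 of the 4 AMPA genes and for 13 of the 23 genes at or above the median level, where 37.1% of all genes at that level had it lowest. Swap array 1 was lowest in its group for 3 of the 4 AMPA genes and 11 of the 23 genes, against 35.0% of all such genes. The replicate 1 arrays were also the lowest of their groups in the summed intensity of the mesenchyme markers (2176 and 2673, against 4112 to 7970 in the other arrays) and of the macrophage markers (447 and 2028, against 1322 to 15329). The sums of the skeletal muscle and erythroid markers were lowest there too, whereas those of the cranial sensory ganglia were highest (3911 and 3612). The summed neuron markers were lowest in control array 1 (28990) but highest in swap array 1 (40349). No other list had its lowest, or its highest, sum of each group in the replicate 1 arrays. The part of these markers in the AMPA values was not tested.

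Of the kainate receptor genes 5 were measured. Grik3 encodes a low-affinity kainate subunit. It stood at 11.30, 10.45 and 10.74 in the control and at 10.59, 9.77 and 9.98 in the swap arrays. Only swap array 1 reached into the control range, and the difference was -0.72 (SE 0.35, 95% interval -1.58 to 0.15, adjusted p 1.00 in limma). Without control array 1 it was -0.48, and the second, lower probe set of Grik3 gave 0.52. Grik5, which encodes a high-affinity subunit that needs a partner such as Grik2 to form a channel, was at 7.77, 7.56 and 6.69 in the control and 8.20, 7.73 and 7.84 in the swap arrays, with overlap and a difference of 0.59 (SE 0.36). Grik2 itself was at 8.42, 8.71 and 8.69 in the control and 9.09, 8.39 and 8.75 in the swap arrays, a difference of 0.14 (95% interval -0.53 to 0.80). Grik1 and Grik4, below the median level, had differences of -1.15 and 0.94 with overlapping groups.

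All 6 measured NMDA receptor genes had a difference below 0, with a median of -0.67, and none passed the test. These genes encode the glutamate receptors whose channel is blocked by magnesium until the cell is depolarised. The count of 6 held under quantile normalization, median centring and an offset of 64 before log2, but it was 5 with the mean of all probe sets of a gene, 4 without both replicate 1 arrays, and 5 without control array 1, swap array 1 or swap array 3 alone. Grin2d, a subunit gene known for expression in the embryonic brainstem, stood at 8.08, 8.62 and 7.78 in the control and at 6.99, 7.70 and 7.73 in the swap group. The groups did not overlap, though swap array 3 lay close under control array 3, and the difference was -0.68 (SE 0.35, adjusted p 1.00 in limma). The second probe set of Grin2d, below the median level, gave 0.57.

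Grin2b, the other NMDA subunit gene known for embryonic expression, was at 7.24, 7.27 and 7.44 in the control and at 6.33, 6.89 and 7.84 in the swap group. The swap arrays spread to both sides of the control arrays, with a difference of -0.30 (SE 0.42), which became 0.05 once swap array 1 was left out. Grin3b, which encodes a glycine-binding subunit, was at 7.18, 7.70 and 7.49 in the control and 6.89, 7.56 and 7.30 in the swap arrays, with overlap and a difference of -0.20. Grin2a and Grin2c, known for later expression, lay below the median level with differences of -0.65 and -0.69.

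Grin3a had the second smallest p of the 54 genes. It encodes a glycine-binding NMDA subunit of young neurons that lowers the calcium flow through the channel. It stood at 5.64, 6.14 and 5.61 in the control and at 2.44, 3.41 and 4.19 in the swap arrays. Every swap array lay more than 1 log2 unit below every control array. The difference was -2.45 (SE 0.49, 95% interval -3.65 to -1.24, a 5.45-fold lower intensity), with an unadjusted p of 0.00268 and an adjusted p of 0.607 in limma. The 2 other probe sets of Grin3a gave -1.84 and -0.72 with overlapping groups. The delta receptor gene Grid1 encodes a protein that acts mainly as a synaptic adhesion partner. It was at 6.08, 7.32 and 7.92 in the control and 6.50, 7.24 and 8.29 in the swap arrays. The groups overlapped, with swap array 3 above all control arrays, and the difference was 0.24. Grid2ip was at 7.21, 6.72 and 7.17 in the control and 6.65, 7.51 and 7.05 in the swap arrays, a difference of 0.04.

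**Figure D3:**
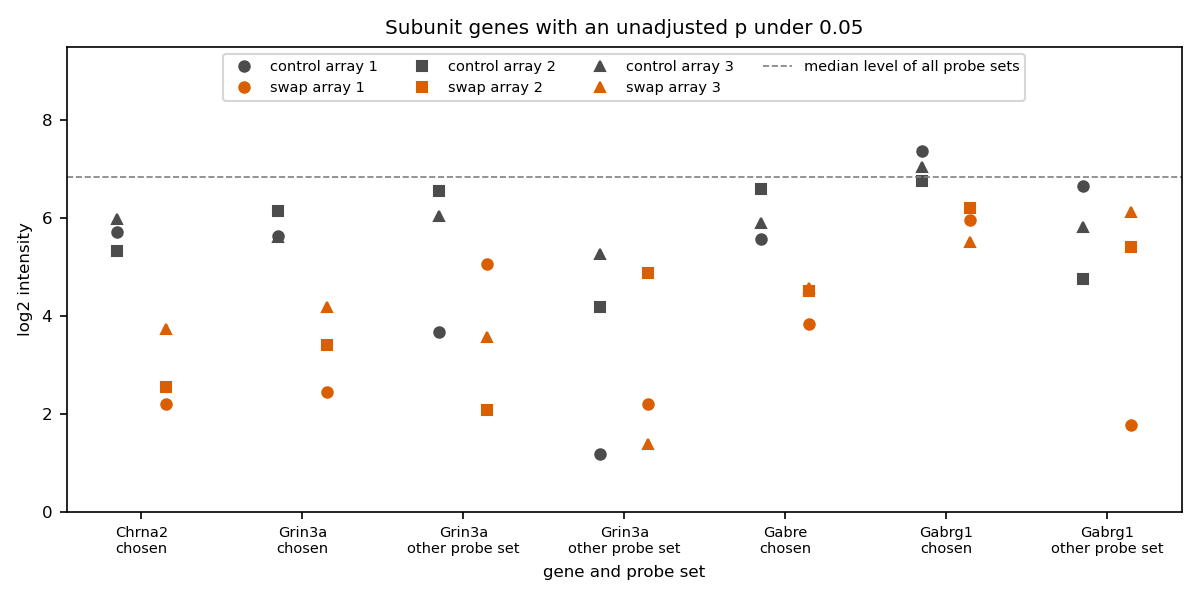
Log2 intensity per array at every probe set of the 4 genes with an unadjusted p under 0.05 (control in grey, swap in orange), with the median level of all probe sets as a dashed line. At the chosen probe sets the groups do not overlap; at the other probe sets of Grin3a and Gabrg1 they do.

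Of the neuronal nicotinic genes 10 were measured and 5 lay at or above the median level. Chrna3 encodes the alpha subunit of ganglionic receptors. It stood at 10.07, 9.64 and 9.70 in the control and at 9.83, 9.55 and 9.49 in the swap group. The groups overlapped, and the difference was -0.18 with a 95% interval of -0.77 to 0.42, within 2-fold. Chrnb4, its usual beta partner, was at 7.28, 7.12 and 6.45 in the control and 7.64, 7.38 and 7.47 in the swap arrays. All 3 swap arrays lay above all 3 control arrays, swap array 2 only narrowly, and the difference was 0.54 (SE 0.29, adjusted p 1.00 in limma). Without control array 3 it was 0.29, and the second probe set gave -0.28. Chrna5, the third gene of this neighbouring group, lay below the median level with a difference of -0.04.

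Chrna4 and Chrnb2 together form the most common nicotinic receptor of the brain. Chrna4 was at 9.15, 9.77 and 9.84 in the control and at 10.05, 9.81 and 10.52 in the swap arrays. Swap array 2 lay within the control range and the other 2 above it (difference 0.54, SE 0.32), but the other 2 probe sets of Chrna4 gave -0.26 and -0.51. Chrnb2 was at 8.64, 9.51 and 8.93 in the control and 8.99, 8.88 and 9.20 in the swap arrays, with the swap arrays inside the control range and a 95% interval of -0.74 to 0.74. Chrna7, which forms receptors from 1 kind of subunit, was at 9.52, 9.05 and 9.84 in the control and 8.94, 9.14 and 9.40 in the swap arrays, a difference of -0.31 with overlap. A second probe set of Chrna7, below the median level, gave 2.00 in the opposite direction, with an unadjusted p of 0.00486 in limma.

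Chrna2 had the smallest p of the 54 genes. It encodes a nicotinic alpha subunit that in the adult marks few kinds of neurons. It stood at 5.71, 5.33 and 5.97 in the control and at 2.21, 2.54 and 3.74 in the swap arrays, so the groups were well apart. The difference was -2.84 (SE 0.46, 95% interval -3.98 to -1.70, a 7.15-fold lower intensity), with an unadjusted p of 0.000991 and an adjusted p of 0.460 in limma. Only 1 probe set measures the gene. Both groups lay below the median level, and with an offset of 64 added before log2, which damps low intensities, the difference was -0.68, with differences of -0.67, -0.64 and -0.67 for Grin3a, Gabre and Gabrg1. The small SEs also depended on the fit. With a robust prior variance that follows the level, the SE was 0.88 for Chrna2, 0.90 for Grin3a, 0.84 for Gabre and 0.50 for Gabrg1. The adjusted p in limma was then 0.9998 for each of them.

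The 5 muscle-type nicotinic genes all lay below the median level. They form the receptor of the neuromuscular junction, with Chrng in the fetal form and Chrne in the adult form. Chrng was at 5.91, 5.94 and 6.64 in the control and at 5.64, 6.21 and 3.58 in the swap arrays. Swap array 3 alone was far below the rest, and the difference was -1.02 (SE 0.72). Chrna1, Chrnb1, Chrnd and Chrne had differences of 0.07, -0.40, -0.52 and -0.09 with overlapping groups. Of the 10 listed skeletal muscle markers 1, Tnnc1, reached the median level. Summed over the list, the intensity ranged from 467 to 1158 in the control and from 517 to 1058 in the swap arrays. In the list 6 markers had a difference below 0 and 4 above it. Among them the myogenic factors Myod1, Myf5 and Myog differed by -0.86, -0.27 and 0.35. The part of these markers in the values of the muscle-type genes was not tested.

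Promoter sequences were searched on both strands for 10 motifs, which the choice of genes did not use, and the 2 shown here were chosen after all the matches had been seen, so their counts are a description with no test. Myogenic transcription factors bind the E-box CAGCTG, which reads the same on both strands, and Sp1-type factors bind the GC box GGGCGG. Neither of these motifs contains the other. The RefSeq table (GRCm38.p6), which gives 250 bases before to 50 after a start site, held a promoter for 40 of the 54 genes. The E-box was in 3 of 4 muscle-type genes, in 2 of 7 neuronal nicotinic genes (Chrna9 and Chrnb4) and in 7 of the 40 genes in all, against 18.3% of all 27025 genes of the table. The 5 E-box windows of the muscle-type genes, 30 bases each with the motif in capitals, are shown because the myogenic E-box is a textbook feature of these genes, all of which were read below the median level here.
Chrna1, first: ctgtgggcagctCAGCTGtcatgcgggcac
Chrna1, second: tagctgtggagtCAGCTGgcttccaaggcc
Chrng, first: atatcctgggaaCAGCTGacaatgcagtgg
Chrng, second: gcagtggtcagaCAGCTGgtggggccagct
Chrne: cacaggatggggCAGCTGcctcccccaccc
The Chrna1 windows lie at chr2:73580413-73580442 and chr2:73580365-73580394 on the minus strand, with the motif beginning at -92 and -44 from the start site. Those of Chrng lie at chr1:87205644-87205673 and chr1:87205667-87205696 on the plus strand, at -155 and -132. That of Chrne lies at chr11:70619315-70619344 on the minus strand, at -138. A match is a string of letters and not a measured binding site.

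The GC box was in 21 of the 40 genes with a promoter, against 38.2% of all genes of the table. It was in 11 of the 18 genes at or above the median level, in 10 of the 22 below it, and in 5 of the 7 neuronal nicotinic genes with a promoter. Of the 8 motifs searched and not shown, AGATGG was in 8 of the 40 genes (20.9% of all genes of the table), TATAAA in 5 (15.7%), CAGATG in 3 (19.2%), GGACAGC in 3 (7.59%) and TAATTA in 2 (6.12%). The other 3 of these, TTCAGCACC (0.433% of all genes), TGACGTCA (2.03%) and ATTTGCAT (1.97%), were in 0 of the 40. The windows of Chrna3, Chrnb2, Chrna7 and Grik3 are shown as examples from genes at or above the median level, with the motif, or its reverse complement in Chrna3, in capitals.
Chrna3: ctcccagcctccCCGCCCtgcggctgctag
Chrnb2: cttccgcctccgGGGCGGagactcctcccc
Chrna7: atgcagttcccgGGGCGGccacggagctgc
Grik3: gcagccgaggcgGGGCGGgcgccggcgggg
They lie at chr9:55026558-55026587, chr3:89764619-89764648 and chr7:63212631-63212660 on the minus strand and, for Grik3, at chr4:125490623-125490652 on the plus strand. These shares are descriptions and were not tested.

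The 5-HT3 genes, whose products form an ion channel opened by serotonin, were both below the median level. Htr3b was at 5.19, 2.60 and 2.86 in the control and 2.91, 2.65 and 2.53 in the swap arrays. Control array 1 alone stood high, and the difference was -0.85 (SE 0.72). Htr3a had a difference of -0.03.

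Many subunit genes sit beside each other on the chromosomes, and most groups of neighbours held differences of both signs. With at most 1 other protein-coding gene between neighbours in the RefSeq order, 26 of the genes fell into 11 groups, of which 4 had all measured members on 1 side of 0 and 7 had both signs. These counts were set against no baseline and are a description only. In the GABA-A group of chromosome 5 the differences were -1.16 for Gabrg1, 0.02 for Gabra2, -0.25 for Gabra4 and 0.97 for Gabrb1. In the GABA-A group of chromosome X they were -1.72 for Gabre, -0.44 for Gabra3 and 0.81 for Gabrq.

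Probe sets of the same gene often disagreed. Of the 33 genes with more than 1 probe set, 14 had the same sign at all of them. Of the 53 probe sets that were not chosen, 10 lay at or above the median level, and 5 of these 10 had the sign of the chosen one. Below the median level 23 of 43 did. At an unadjusted p under 0.05 in limma there were 5 of these others, with 3 above 0 and 2 below. They belong to Chrna7 (2.00), Gabra2 (2.03), Grik1 (1.36), Gabrg3 (-2.11) and Chrna9 (-1.42), and were chosen after their values were seen.

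**Figure D4:**
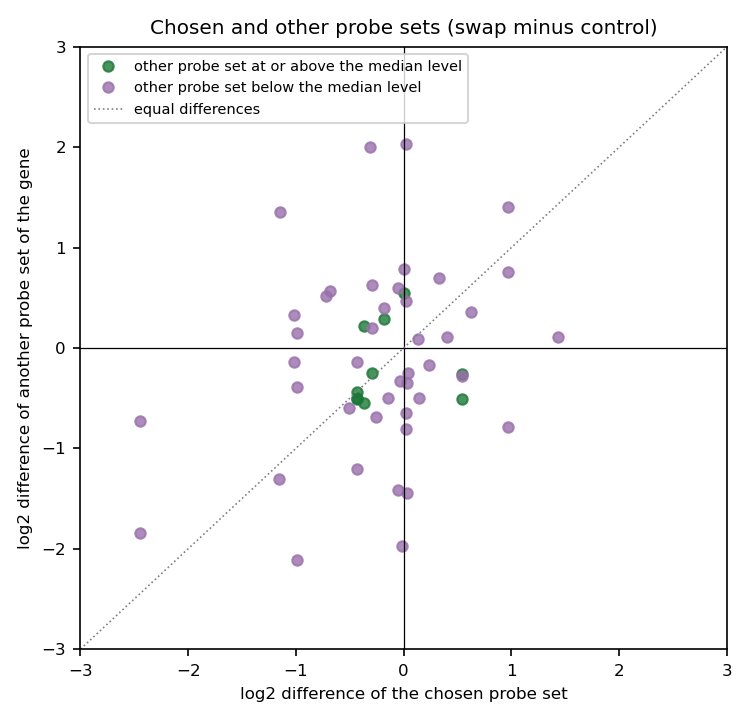
Log2 difference, swap minus control, of each of the 53 other probe sets (vertical axis) against that of the chosen probe set of the same gene (horizontal axis), coloured by the level of the other probe set, with a dotted line at equal differences. Of the 10 that reach the median level, 5 lie on the same side of 0 as the chosen one.

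Genes that anchor, assemble or assist these receptors were read from lists, and none passed the test. Each was read from 1 probe set, and other probe sets of these genes were not compared. Of 18 listed partners of GABA-A and glycine receptors 17 were measured, 8 lower and 9 higher, with a median of 0.06. The groups did not overlap for 1 of the 17 (5.88%), against 8.85% of all genes. Slc12a5 encodes the transporter KCC2, which exports chloride and so sets the direction of GABA and glycine currents. It was at 9.47, 9.37 and 9.10 in the control and at 8.92, 8.94 and 8.54 in the swap group. The groups did not overlap, and the difference was -0.51 (SE 0.24, 95% interval -1.11 to 0.09, unadjusted p 0.0807 in limma). Slc12a2 encodes the chloride importer NKCC1 and differed by 0.09 (95% interval -0.46 to 0.65). Gabarap, a GABA-A receptor trafficking protein, differed by -0.18, and Plcl2 by -0.52 (SE 0.31).

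Of 30 listed partners of ionotropic glutamate receptors 29 were measured, 16 lower and 13 higher, with a median of -0.03. Groups without overlap were found for 2 of the 29 (6.90%), against 8.85% of all genes. Cacng3, an auxiliary subunit of AMPA receptors, was at 5.70, 5.01 and 6.44 in the control and 2.44, 4.44 and 2.40 in the swap arrays, apart but below the median level (difference -2.62, SE 0.69, adjusted p 0.896 in limma). Grip2, an AMPA receptor scaffold gene, differed by -1.86 (SE 0.61), also below that level with no overlap. Dlg3, a scaffold of the PSD-95 family, differed by -0.03 (95% interval -0.64 to 0.58), and Olfm1 by 0.07. All 11 listed partners of nicotinic receptors were measured, 5 lower and 6 higher, with a median of 0.04. Agrn, the organiser of the neuromuscular junction, differed by -0.03 and its receptor gene Lrp4 by -0.01, while Musk (1.44, SE 0.99) and the nicotinic modulator Lynx1 (0.49, SE 0.43) lay below the median level.

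Other receptors for the same or similar signals, also read from 1 probe set each, gave 0 calls as well. All 7 P2X receptor genes, ATP-gated channels, were measured, with 5 lower, 2 higher and a median of -0.11. Groups without overlap were found for 1 of the 7 (14.3%), against 8.85% of all genes. P2rx3, known from sensory neurons, differed by -0.11 (95% interval -0.68 to 0.47), P2rx4 by -0.12 and P2rx1 by 0.43. P2rx5 was at 6.87, 7.48 and 7.03 in the control and 6.03, 6.52 and 3.76 in the swap arrays, without overlap and with swap array 3 far below the rest (difference -1.69, SE 0.75). Of 27 listed metabotropic receptor genes, which act through G proteins, 21 were measured, 11 lower and 10 higher, with a median of -0.11. For 4 of the 21 (19.0%) the groups did not overlap, 2 of them lower and 2 higher in the swap arrays. Gabbr1, a GABA-B subunit gene, differed by 0.05 (95% interval -0.61 to 0.72) and Grm4 by -0.17. Chrm3, a muscarinic acetylcholine receptor gene, had the smallest p of the list: its control arrays stood between 5.56 and 6.40 and its swap arrays between 3.18 and 3.62. The groups did not overlap, both lay below the median level, and the difference was -2.59 (SE 0.30, unadjusted p 0.000169 and adjusted p 0.305 in limma). Grm5, a metabotropic glutamate receptor gene, was at 5.07, 4.46 and 6.12 in the control and 6.63, 6.36 and 6.56 in the swap arrays, above all control arrays and with a difference of 1.30 (SE 0.45, unadjusted p 0.0298 in limma).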

How the data were processed

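Total RNA of the sorted cells was amplified and hybridized to 6 Affymetrix mouse arrays, 1 linear intensity per probe set as the authors deposited it. The submitters' processing notes name affy; version, background correction and summary are not stated in the sources used here. On each array the values had been scaled to a 2% trimmed mean of 500 before deposit (medians 118 to 139), and they come without detection calls. Log2 was taken with no offset, since all values were above 0. After control probe sets were left out, 45037 probe sets were fitted with limma 3.58.1 in R 4.3.3 (lmFit, eBayes, two-sided, Benjamini-Hochberg over all probe sets, 3 against 3 arrays). Replicates are independent biological ones, per the series design. Their number limits the precision. The fit was tested on simulated data.

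Genes were named from the platform table (34945 probe sets with 1 symbol, 932 with several, 9160 with none). All 54 Entrez identifiers matched RefSeq, with 0 symbols changed. Subunit genes without such a probe set were not analysed here. Array values are printed for genes at or above the median level, with an unadjusted p under 0.05, or with the smallest p of their family; of partner lists, up to 2 genes with the smallest p and up to 2 with the highest mean. The genes, lists and rules were chosen with earlier results of these data known. Differences are relative to arrays as scaled, and no hybridization batch could be tested. Alternatives were a replicate block, a level filter, quantile normalization, median centring, an offset, another prior, array weights, probe set means, a looser threshold and leaving out arrays; Grid2ip was left out after the data were seen.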

Additional observations from a re-analysis of the deposited data

How the results depend on the processing

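limma called 0 probe sets and 0 of the 54 genes under all 16 alternatives that gave these counts, the looser threshold of 0.1 among them. Between 3 and 8 of the 54 genes had an unadjusted p under 0.05 in limma with all genes kept (4 in the reported fit). In these fits 1624 to 2375 of the 45037 probe sets had one, and with probe set means 801 of 18193 genes. When probe sets under the median level were left out it was 1 of 23 genes, against 838 of 22519 probe sets. The median difference stayed below 0, from -0.24 to -0.04, and was -0.15 without Grid2ip. The count of genes whose arrays do not overlap was 6. It was 5 with quantile normalization and 4 with the mean over all probe sets of a gene. With arrays left out it was 9 to 17, where fewer arrays overlap less easily. These counts under alternatives were set against no share over all genes. With the level filter the count was 2 of 23, against 8.19% of all genes at or above the median level.

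Replicate numbers are shared by both groups, but the deviations of same-numbered arrays from their group means correlated at 0.234, 0.0313 and 0.224, and control array 2 correlated best with swap array 3. Arrays with different numbers correlated between -0.287 and 0.123, so the same-numbered arrays of replicates 1 and 3 gave the highest values. The check did not decide whether the arrays are paired. The labels state no pairing, and the reported fit used none. With the replicate number as a block, limma called 0 probe sets, and 8 of the 54 genes had an unadjusted p under 0.05, 6 of them lower in the swap arrays. In that fit 2323 of the 45037 probe sets were under 0.05.

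Of 457 values of the 31 genes with printed array values, 416 kept direction and side and 0 became called, with a smallest adjusted p of 0.337 in limma. The other 41, in 15 genes whose differences had not passed, turned sign. With the mean of all probe sets they were Chrna3 (0.17), Chrna4 (-0.077), Chrna7 (0.84), Chrnb2 (0.44), Glra1 (-0.18), Glrb (-0.11), Gria4 (-0.59) and Grin2b (0.072). Median centring turned Chrnb2 (0.030), the offset Gabra2 (-0.011), and array weights Gabra2 (-0.14), Glrb (-0.026) and Gria4 (-0.022). With arrays left out, the ranges were -0.65 to 0.43 for Gabra2, -0.27 to 0.66 for Grid1, -0.19 to 0.24 for Chrnb2, -0.60 to 0.41 for Gabrr1, -0.20 to 0.33 for Glrb, -0.42 to 0.12 for Gria3, -0.18 to 0.34 for Grid2ip, -0.60 to 0.0067 for Gabra4, -0.12 to 0.22 for Gria4, -0.13 to 0.31 for Grik2, -0.71 to 0.045 for Grin2b and -0.091 to 0.40 for Glra1. Chrna2, Grin3a, Gabre, Gabrg1, Grin2d and Chrnb4 kept their sign in every alternative that gave them a value. With groups that do not overlap, though, no sign could turn when 1 array was dropped. With the mean of all probe sets the difference shrank to -0.056 (SE 0.49) for Grin2d and to 0.13 (SE 0.33) for Chrnb4.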
